A study of Mus musculus with 6 samples.

Results

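Immediate early genes are switched on within minutes of a stimulus, without new protein synthesis, and heat shock genes are switched on when proteins in the cell lose their fold. Both classes are known to respond when solid tissue is cut up and digested with warm enzymes, so they are followed here as a readout of handling in cells sorted from mouse breast tumours. The list holds 41 genes of the 52325 in the deposited table, chosen by symbol: 28 immediate early genes and 13 heat shock genes. All 41 passed the filter on low counts, which left 20684 genes.

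RNA was sequenced from 6 cell populations of breast tumours, all of C57BL/6 mice of the background given as C3-T with an Elf5-GFP reporter, in which green fluorescent protein reports Elf5, a transcription factor of luminal progenitor cells. Digestion used collagenase and hyaluronidase. Cells were enriched by depletion with antibodies to CD45 (leukocytes), CD31 (endothelium) and TER119 (red cells). GFP then divided the remaining cells into 2 Elf5+ and 4 Elf5- libraries. Tumour background, reporter, digestion and antibody step were common to both groups, and no undigested tissue was analysed here, so the level before digestion is not known. The sources used here give neither age nor treatment. Each title carries a number and a code (T1 or T2) that the labels do not define. The libraries with the number of tb08_4414 are called set A: Elf5- library 1 (T1), Elf5- library 2 (T2) and Elf5+ library 1 (T2). Those with the number of tb11_4413 are called set B: Elf5- library 3 (T1), Elf5- library 4 (T2) and Elf5+ library 2 (T2). The Elf5+ libraries are therefore both T2, and T1 is Elf5- only. The labels do not tie libraries to animals, and the spread that the p-values rest on may in part be technical.

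The libraries held 9106660 estimated counts in Elf5- library 4 and 32602477 to 53694884 in the other 5. The levels below are CPM, counts scaled to library size with TMM factors. Elf5 itself stood at 6.93 to 24.7 CPM in the Elf5- libraries and at 77.7 and 137 CPM in the Elf5+ libraries. Of 16 epithelial markers, 9 were higher in Elf5+ at an adjusted p below 0.05 (edgeR quasi-likelihood test, Benjamini-Hochberg adjustment over all genes tested), and their summed level was 2224 to 3822 CPM in Elf5- against 5959 and 8844 CPM in Elf5+. Fibroblast markers fell, with 9 of 10 lower and a summed level of 17179 to 50690 CPM in Elf5- against 1110 and 1341 CPM in Elf5+. Pericyte and smooth muscle markers also fell (5 of 8, summed 474 to 1267 CPM against 103 and 109 CPM), as did endothelial markers (3 of 7, summed 57.7 to 135 CPM against 12.8 and 37.3 CPM). No marker of these 4 lists was at 0 in any library. The Elf5- libraries thus held stromal RNA throughout, and in bulk RNA fewer cells of a type and less RNA per cell cannot be told apart.

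Heat shock genes are activated by heat shock factors, chiefly HSF1, which bind inverted repeats of the 5-base unit nGAAn. Immediate early genes are activated through serum response factor at the CArG box and through CREB at the cyclic AMP response element (CRE), and their products include the Fos and Jun proteins of the AP-1 factor. RefSeq promoter windows (GRCm38.p6, 250 bases before the start site searched on both strands) were matched by symbol for 33 of the 41 members, 23 immediate early and 10 heat shock. A paired heat shock repeat, GAANNTTC or TTCNNGAA, lay in 6 of 10 heat shock windows (60%), against 2 of 23 immediate early windows (8.7%) and 12.8% of all 32817 windows. The 6 were Hspa1a, Hspa1b, Hsph1, Hspb1, Hspe1 and Dnaja1. The CRE core TGACG or its complement CGTCA lay in 12 of 23 immediate early windows (52.2%), against 3 of 10 heat shock windows (30%) and 17.7% of all windows. The whole CRE, TGACGTCA, which holds the core, lay in 2 immediate early windows, Dusp1 and Btg2, and in 1.55% of all. The CArG box lay in 1 immediate early window (Zfp36) and in 1.47% of all, and the AP-1 letters TGANTCA in no immediate early window, in the heat shock window of Bag3, and in 6.75% of all. These are matches of letters, not measured binding.

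The heat shock promoters that carry the paired repeat are shown for the Hspa1 pair, Hspb1 and Hspe1, as examples of a single repeat in near-copies, separate repeats and overlapping repeats, with the repeats in capitals and each written 5′ to 3′ on the gene's strand (GRCm38). Hspa1a (chr17:34972157-34972276, minus strand) and Hspa1b (chr17:34959239-34959358, minus strand) have the repeat beginning 104 bases before the start. Hspb1 (chr5:135887789-135887918, plus strand) has a pair of them, beginning 117 and 97 bases before the start. In Hspe1 (chr1:55088055-55088082, plus strand) they overlap in 1 run that begins 89 bases before the start.
Hspa1a: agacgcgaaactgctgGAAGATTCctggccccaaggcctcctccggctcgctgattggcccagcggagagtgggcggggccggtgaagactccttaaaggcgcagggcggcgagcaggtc
Hspa1b: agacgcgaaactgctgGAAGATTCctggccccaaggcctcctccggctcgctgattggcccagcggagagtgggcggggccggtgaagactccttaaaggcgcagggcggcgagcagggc
Hspb1: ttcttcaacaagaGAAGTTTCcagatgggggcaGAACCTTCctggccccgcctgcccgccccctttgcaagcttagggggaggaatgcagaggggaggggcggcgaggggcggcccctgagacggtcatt
Hspe1: tccgTTCTAGAACCTTCCGGAAggcccc

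The immediate early promoters shown carry the CRE core or the whole CRE in capitals. Fos (chr12:85473750-85473889, plus strand) has the core beginning 129 and 66 bases before the start, Nr4a2 (chr2:57124105-57124213, minus strand) has it 4 times on either strand, and Btg2 (chr1:134079257-134079335, minus strand) has the whole element beginning 166 bases before the start.
Fos: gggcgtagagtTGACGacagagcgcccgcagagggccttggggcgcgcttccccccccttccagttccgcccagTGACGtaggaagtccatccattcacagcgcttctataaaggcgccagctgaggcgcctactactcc
Nr4a2: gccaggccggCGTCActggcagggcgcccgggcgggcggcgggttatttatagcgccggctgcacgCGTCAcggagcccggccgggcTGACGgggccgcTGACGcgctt
Btg2: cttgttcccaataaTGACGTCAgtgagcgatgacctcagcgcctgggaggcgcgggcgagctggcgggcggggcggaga

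The heat shock windows of Hspa1a and Hspa1b had the same base at 247 of 250 positions (98.8%). Their transcripts are also near-copies: 63.8% of the 31-base words of Hspa1a were found in Hspa1b, so the model that assigned reads could divide them between the genes, and the 2 genes' values are uncertain singly and are also given as a sum.

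Both classes were abundant in every library. The immediate early members together took 1.43% to 2.13% of the counts in each library, before TMM scaling, and the heat shock members 0.785% to 2.27%. On CPM per kilobase of merged exon, the scale on which genes can be compared, Hspa1b ranked 20 of 20654 genes with a mean of 1194 CPM per kb over the 6 libraries. Fos ranked 30 (992 CPM per kb), Hsp90ab1 37 (897), Hspb1 38 (884), Hspa1a 69 (650) and Egr1 96 (494). At the other end, Nr4a2 ranked 6969, Dusp2 8570 and Nr4a3 9016.

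The comparison of Elf5+ with Elf5- asked whether the stress readout differed between the sorts. No member of either class passed the test: 0 of 41, where 4.37% of all genes tested were called, 121 higher (0.585%) and 783 lower (3.79%) in Elf5+. At an unadjusted p below 0.05 the count was 3 of 41 (Klf2, Dusp1 and Hspb8, all lower in Elf5+), against 16.9% of all genes. With each Elf5- library left out in turn it was 4 to 5, and other settings moved it further, as given in the last section. DESeq2 called the same 3 lower, where it called 8.52% of all genes lower, and so did edgeR with no low-count filter, where 3.76% were. The median log2 fold change, Elf5+ minus Elf5-, was -0.06 over the immediate early members and 0.21 over the heat shock members, with 0.05 over all genes. The groups did not overlap in 6 of 41 members (14.6%), against 25.7% of all genes. These were Ier2 and Btg1, higher in Elf5+, and Nr4a3, Klf2, Dusp1 and Hspb8, lower. Within the T2 libraries, Elf5+ stood above Elf5- in both title sets for 20 members (48.8%, against 34.8% of all genes) and below it in both for 12 (29.3%, against 34.2%). With libraries scaled to the epithelial markers in place of TMM, the median of all genes moved to -1.30, and 19 immediate early and 6 heat shock members were called lower, where 38.9% of all genes were.

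**Figure D1:**
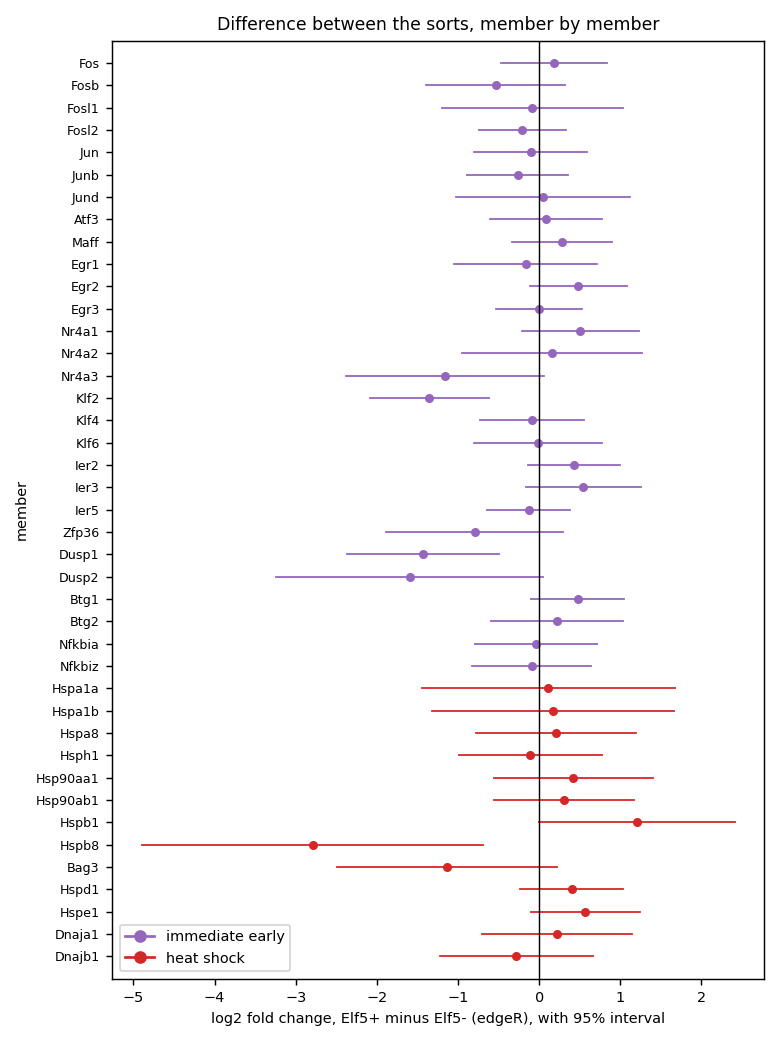
Log2 fold change of each member between the sorts, Elf5+ minus Elf5- (x axis, edgeR estimate as a point with its 95% interval), with members on the y axis and immediate early and heat shock members in separate colours. The intervals of Klf2, Dusp1 and Hspb8 lie wholly below 0.

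The Fos and Jun families, with Atf3 and Maff, encode the subunits that pair to form AP-1 and related factors. Fos was at 2627, 2132, 2277 and 1900 CPM in Elf5- libraries 1 to 4 and at 2621 and 2440 CPM in Elf5+ libraries 1 and 2. The groups overlapped, with means of 2234 ± 304 (SD, n = 4) and 2530 ± 128 CPM (SD, n = 2) and a log2 fold change of 0.18 (SE 0.28, edgeR adjusted p = 0.822). Fos varied little for so strongly inducible a gene: its highest library was 1.38 times its lowest. Fosb, the member of this group with the smallest p, was at 1878, 891, 974 and 1253 CPM in Elf5- and at 788 and 933 CPM in Elf5+, with Elf5- library 1 standing highest (log2 fold change -0.54, SE 0.37, edgeR adjusted p = 0.558). Jun, the partner of Fos, was at 1576, 1440, 1390 and 1195 CPM in Elf5- and 1600 and 1005 CPM in Elf5+, so that its highest and lowest values were the 2 Elf5+ libraries. The log2 fold changes of the 9 genes of this group ran from -0.54 to 0.28, and none had an unadjusted p below 0.05. More than 50% of the exon bases of Fosl1 (57.2%, with Ccdc85b) and of Jund (52.6%, with Gm11175) overlap a gene on the opposite strand, and whether counting used strand is not known from the labels, so reads of the 2 strands may be mixed in their values.

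Egr1, a zinc finger factor that responds to growth factor signals, was at 3201, 1517, 2392 and 2072 CPM in Elf5- and 1608 and 2489 CPM in Elf5+ (log2 fold change -0.16, SE 0.38, edgeR adjusted p = 0.890). Elf5- library 1 was again the highest, and Elf5- library 2 the lowest. Egr2 was at 210, 157, 155 and 174 CPM in Elf5- and at 193 and 293 CPM in Elf5+, so the groups overlapped (0.48, SE 0.26, adjusted p = 0.420, edgeR). Among the Nr4a genes, orphan nuclear receptors induced by many stimuli, Nr4a1 was at 741, 465, 416 and 483 CPM in Elf5- and 634 and 862 CPM in Elf5+ (0.51, SE 0.31, adjusted p = 0.497, edgeR). Nr4a3 lay lower in both Elf5+ libraries, at 7.38 and 19.8 CPM against 52.5, 22.5, 23.5 and 22.9 CPM (-1.16, SE 0.53, adjusted p = 0.324, edgeR). Its gap between groups was small beside the spread within each, since Elf5+ library 2 was within 4 CPM of 3 of the Elf5- libraries.

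Klf2, a Krüppel-like factor best known from endothelium and quiescent lymphocytes (chr8:72319033-72321656, plus strand), came nearest to the threshold. It was at 88.4, 45.3, 56.7 and 61.7 CPM in Elf5- libraries 1 to 4 and at 21.7 and 27.6 CPM in Elf5+, with no overlap. The means were 63 ± 18.3 CPM (SD, n = 4) and 24.7 ± 4.19 CPM (SD, n = 2). On the log2 scale Elf5+ minus Elf5- was -1.35 (SE 0.32, 95% interval -2.08 to -0.62, edgeR adjusted p = 0.0562, DESeq2 adjusted p = 0.00308). Within the T2 libraries it was -1.06 in set A and -1.16 in set B. Endothelial markers, which fell with it, had no marker at 0 in any library. Fibroblast markers and pericyte and smooth muscle markers fell in the same libraries. The part of these 3 lists in the Klf2 value was not tested. Klf4 was the most abundant of the 3 Klf genes per kilobase, at 652, 577, 644 and 441 CPM in Elf5- and 622 and 466 CPM in Elf5+, and its groups overlapped (-0.09, SE 0.28, edgeR adjusted p = 0.924).

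Dusp1, a phosphatase that switches off MAP kinases (chr17:26505590-26562128, minus strand), was at 1191, 722, 1045 and 750 CPM in Elf5- and at 222 and 464 CPM in Elf5+. Both Elf5+ libraries lay below every Elf5- library, with means of 343 ± 171 (SD, n = 2) and 927 ± 228 CPM (SD, n = 4). The log2 fold change was -1.43 (SE 0.40, 95% interval -2.37 to -0.50, edgeR adjusted p = 0.10, DESeq2 adjusted p = 0.00713). Within T2 it was -1.70 in set A and -0.69 in set B. Fibroblast and pericyte markers fell in the same libraries, and their part in the Dusp1 value was not tested. Zfp36, which speeds the decay of cytokine mRNAs, was at 1590, 701, 828 and 501 CPM in Elf5- and 460 and 583 CPM in Elf5+ (-0.79, SE 0.47, adjusted p = 0.477, edgeR), the first Elf5- library standing well above the rest. Btg1, an antiproliferative gene, lay higher in both Elf5+ libraries, at 590 and 458 CPM against 447, 383, 330 and 350 CPM (0.47, SE 0.25, adjusted p = 0.409, edgeR).

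Ier2, a short-lived nuclear protein, was at 605 and 447 CPM in Elf5+ against 440, 379, 351 and 391 CPM in Elf5-, without overlap (0.43, SE 0.25, edgeR adjusted p = 0.453). Ier3 was at 315, 337, 405 and 210 CPM in Elf5- and 530 and 394 CPM in Elf5+ (0.54, SE 0.31, adjusted p = 0.447, edgeR), with Elf5- library 3 inside the Elf5+ range. The NF-kB inhibitors Nfkbia and Nfkbiz differed little on the log2 scale, by -0.04 (SE 0.32, 95% interval -0.79 to 0.71) and -0.09 (SE 0.32, 95% interval -0.82 to 0.64). Nfkbia was at 555, 469, 398 and 276 CPM in Elf5- and at 468 and 358 CPM in Elf5+. Nfkbiz was at 366, 240, 340 and 186 CPM in Elf5- and at 264 and 267 CPM in Elf5+, so the Elf5+ libraries of both genes fell within the Elf5- range.

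**Figure D2:**
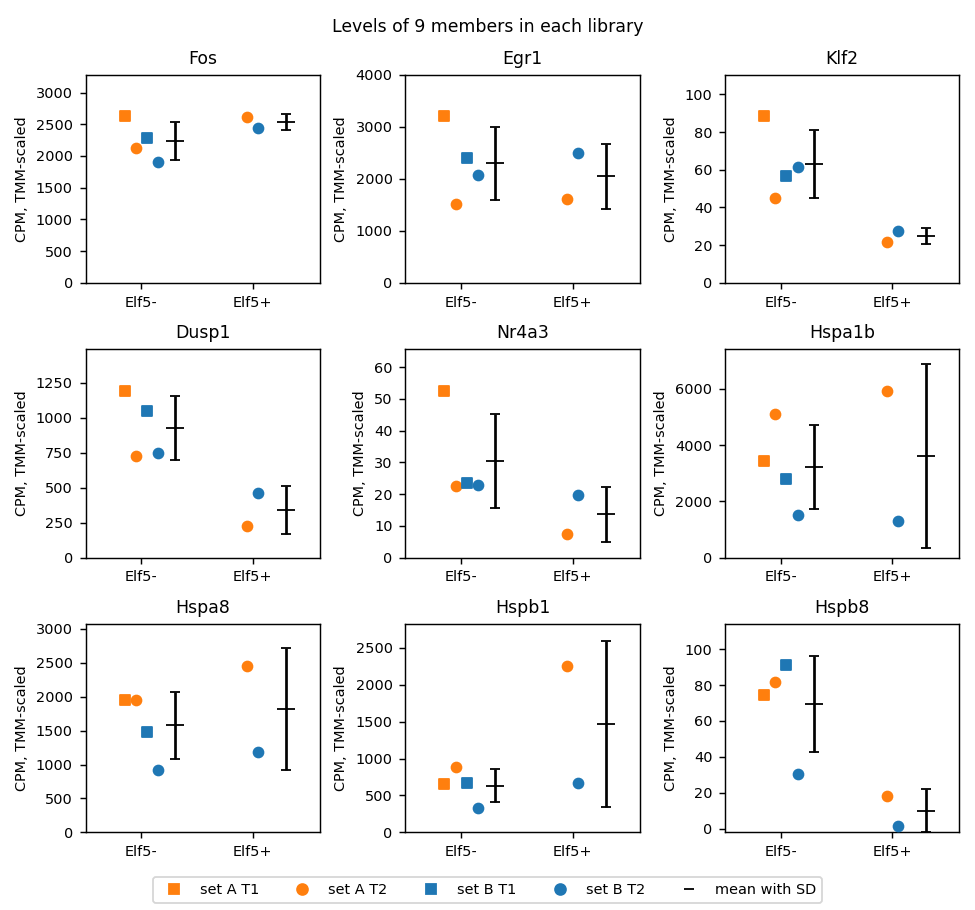
CPM of 9 members in each library (y axis, TMM-scaled, a scale of its own for each gene) by sort (x axis), with set A in orange and set B in blue, the T code as marker shape and the mean with its SD beside the points. In the Hspa1b panel the Elf5+ libraries are the highest and the lowest of the 6, at 5920 and 1303 CPM.

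The inducible Hsp70 genes, whose product refolds proteins, spanned the widest absolute range. Hspa1a (chr17:34969190-34972156) was at 2209, 2835, 1647 and 821 CPM in Elf5- libraries 1 to 4 and at 3394 and 665 CPM in Elf5+ libraries 1 and 2. Hspa1b (chr17:34956436-34959238) was at 3448, 5086, 2791 and 1531 CPM and at 5920 and 1303 CPM. In each gene the highest and the lowest library were both Elf5+, so the log2 fold changes of 0.11 (SE 0.67, adjusted p = 0.964) and 0.17 (SE 0.65, adjusted p = 0.941, edgeR) average 2 libraries at opposite ends. Summed over both copies the level was 5657, 7921, 4438 and 2352 CPM in Elf5- and 9314 and 1968 CPM in Elf5+, and Hspa1b gave 60.95% to 66.23% of the sum in every library. The constitutive Hspa8 was at 1950, 1955, 1482 and 920 CPM in Elf5- and 2458 and 1186 CPM in Elf5+ (0.21, SE 0.43, adjusted p = 0.869, edgeR).

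The Hsp90 genes, whose products hold kinases and hormone receptors in a folded state, also differed widely between the 2 Elf5+ libraries. Hsp90aa1, the inducible form, was at 1830, 1839, 1291 and 892 CPM in Elf5- and 2661 and 1261 CPM in Elf5+ (0.42, SE 0.42, adjusted p = 0.707, edgeR). Hsp90ab1, the constitutive form, was at 2439, 2848, 2971 and 1720 CPM in Elf5- and 3979 and 2189 CPM in Elf5+ (0.31, SE 0.37, adjusted p = 0.765, edgeR). In both, Elf5+ library 1 was the highest of the 6, and Elf5+ library 2 lay inside the Elf5- range.

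The small heat shock proteins, which hold unfolded proteins for the Hsp70 machine, lay on opposite sides of 0. Hspb1 (Hsp27) was at 659, 879, 675 and 326 CPM in Elf5- and 2260 and 668 CPM in Elf5+ (1.20, SE 0.52, adjusted p = 0.296, edgeR). Within T2 the difference was 1.36 in set A and 1.03 in set B, and without Elf5+ library 1 the fitted value was 0.07. Hspb8 (chr5:116408491-116422864, minus strand), which works with Bag3 in clearing aggregates, was at 74.6, 81.8, 91.1 and 30.5 CPM in Elf5- and only 18.4 and 1.68 CPM in Elf5+. The groups did not overlap, and the log2 fold change was -2.79 (SE 0.91, 95% interval -4.90 to -0.69, edgeR adjusted p = 0.151, DESeq2 adjusted p = 0.00511). Within T2 it was -2.14 in set A and -4.10 in set B. Without Elf5+ library 1 it was -5.37 with an edgeR adjusted p of 0.0233, the one call that leaving out a library gave among the 41 members, and there the lone Elf5+ library is assumed to vary like the Elf5- libraries. Pericyte and fibroblast markers fell in the same libraries, and their part in the Hspb8 value was not tested. Bag3 was at 247, 126, 101 and 57.8 CPM in Elf5- and 82.9 and 37.9 CPM in Elf5+ (-1.14, SE 0.59, adjusted p = 0.394, edgeR), with Elf5- library 4 below Elf5+ library 1.

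The mitochondrial chaperonin genes Hspd1 (Hsp60) and Hspe1 (Hsp10), which share a divergent promoter, differed by 0.40 (SE 0.27) and 0.57 (SE 0.29) on the log2 scale. Hspe1 was at 152, 154, 162 and 105 CPM in Elf5- and at 266 and 159 CPM in Elf5+ (adjusted p = 0.389, edgeR), and Hspd1 at 377, 439, 418 and 276 CPM and at 561 and 436 CPM. The Hsp40 genes, which hand substrates to Hsp70, were Dnajb1 at 664, 436, 466 and 233 CPM in Elf5- and 430 and 310 CPM in Elf5+ (-0.28, SE 0.41, adjusted p = 0.805, edgeR) and Dnaja1 at 0.22 (SE 0.40) on the same log2 scale. The sorts overlapped for all 4 of these genes.

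The 2 classes were next set against each other library by library. For each gene the mean over the 6 libraries was subtracted on the log2(CPM + 0.1) scale, and the median over members was taken in each library. The heat shock median was 0.31, 0.26, 0.02 and -0.72 in Elf5- libraries 1 to 4 and 0.64 and -0.38 in Elf5+ libraries 1 and 2. The immediate early median had a narrower range, at 0.22, -0.00, -0.08, -0.16, -0.06 and 0.02 in the same order. The difference, immediate early minus heat shock, was -0.71 in Elf5+ library 1 and 0.56 in Elf5- library 4. The heat shock members peaked in Elf5+ library 1 (9 of 13) and were lowest in Elf5- library 4 (9) or Elf5+ library 2 (4). The immediate early members peaked most often in Elf5- library 1 (13 of 28). No such counts were made over all genes, so they describe the members only. The median ratio of highest to lowest library was 1.99 for the immediate early members and 2.85 for the heat shock members, with 2.81 over all genes. Restricted to genes averaging 100 CPM or more, it was 1.91, 2.76 and 1.96. The smallest ratio belonged to Ier5, at 1.30, and the largest to Hspb8, at 54.1.

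**Figure D3:**
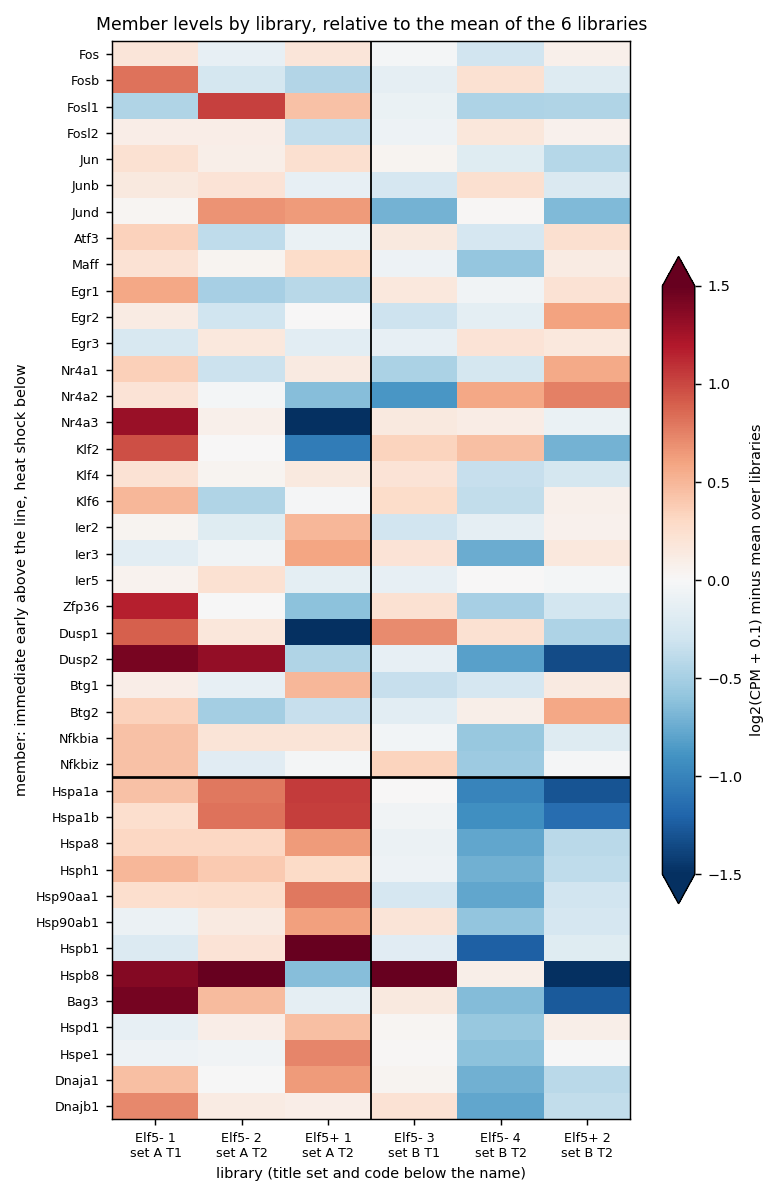
Level of each member (rows, immediate early above the line and heat shock below) in each of the 6 libraries (columns), as log2(CPM + 0.1) minus the gene's mean over libraries. The heat shock rows are high in Elf5+ library 1 and low in Elf5- library 4 and Elf5+ library 2, with medians of 0.64, -0.72 and -0.38.

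The heat shock levels followed the number in the titles in the T2 libraries. Set A stood above set B in the T2 libraries of both sorts for 13 of 13 heat shock members, for 10 of 28 immediate early members (35.7%) and for 39.2% of all genes. This held with TMM, total-count, RLE and upper-quartile scaling, and for 11 of 13 with libraries scaled to the epithelial markers, where 19.5% of all genes did so. Hspa1a was 5.11 times higher in the set A than in the set B library of Elf5+, and 3.45 times higher in the Elf5- T2 libraries. For Hspb1 the ratios were 3.38 and 2.70, and for Bag3 2.19 and 2.19. With TMM scaling the order differed in the Elf5- T1 libraries. Set A was higher for 8 of 13 heat shock members and for 25 of 28 immediate early members (89.3%), against 50.1% of all genes. The ratio for Hspa1a was 1.34. This heat shock count depended on the scaling. It was 8 of 13 with RLE, 9 with upper-quartile, 11 with total-count and 13 with epithelial-marker scaling. Of the 20684 genes tested, 9919, 11389, 12333 and 18163 were higher in set A, in the same order. All 3 libraries of set B lay below all 3 of set A for 5 heat shock members (Hspa1a, Hspa1b, Hspa8, Hsph1 and Hsp90aa1) and 3 immediate early members (Jun, Jund and Nfkbia), together 19.5% of the 41 against 8.83% of all genes. No member had the opposite order, against 8.1% of all genes.

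In a fit with the title number and the sort as terms, 0 of 41 members passed the test of the number, where 0.00483% of all genes tested did, a single gene. An unadjusted p below 0.05 was reached by 10 of 41 members, all lower in set B, against 14.6% of all genes in either direction and 7.12% lower in set B. That count rested on single libraries. Without Elf5+ library 1 it was 3 of 41 (7.32%, against 5.67% of all genes), without Elf5+ library 2 it was 2 (4.88%, against 5.79%), and without Elf5- library 4 it was 4 (9.76%, against 7.86%). Without Elf5- library 3 it was 16 (39%, against 23.7%). The 10 were Jund and Dusp2 among the immediate early genes and Hspa1a, Hspa1b, Hspa8, Hsph1, Hsp90aa1, Hspb1, Bag3 and Dnaja1 among the heat shock genes. DESeq2 called 5 of the 41 lower in set B (Hspa1a, Hspa1b, Hsp90aa1, Bag3 and Dusp2), where it called 2.11% of all genes in that direction. With no low-count filter edgeR called 7 (Hspa1a, Hspa1b, Hspb1, Hspb8, Bag3, Dusp2 and Jund), against 2.19% of all genes. The median log2 difference, set B minus set A, was -0.82 over the heat shock members, -0.13 over the immediate early members and -0.02 over all genes. The difference was below 0 for 13 of 13 and 20 of 28 members, and for 10678 of the 20684 genes tested. With each library left out in turn it stayed below 0 for 13 of 13 heat shock members, and for 13 to 27 of the 28 immediate early members. The median of all genes then ran from -0.04 to 0.02. These fits share most of their libraries, so they are not separate repeats.

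The Hspa1a difference was -1.46 (SE 0.42, edgeR adjusted p = 0.255), from means of 2813 ± 593 CPM (SD, n = 3) in set A and 1044 ± 528 CPM (SD, n = 3) in set B. Summed over the Hspa1 copies it was -1.41 (edgeR adjusted p = 0.269). Bag3 differed by -1.20 (SE 0.32, edgeR adjusted p = 0.248) and Hsp90aa1 by -0.86 (SE 0.27, edgeR adjusted p = 0.274). Among immediate early genes the difference was -0.16 for Fos (SE 0.27), 0.16 for Egr1 (SE 0.37) and 0.07 for Atf3 (SE 0.29). Dusp2, a phosphatase gene of immune cells, was at 19.4, 18.0 and 5.20 CPM in the set A libraries and at 6.53, 4.01 and 2.75 CPM in set B (-1.51, SE 0.34, edgeR adjusted p = 0.240). Macrophage markers were also lower in set B (6 of 6 negative, median -1.32, 6 with an unadjusted p below 0.05, 0 passing). Their summed levels were 462, 213 and 222 CPM in set A and 117, 89.1 and 80.7 CPM in set B. Skeletal muscle markers were lower too (6 of 6 negative, median -4.55, 5 with an unadjusted p below 0.05). Their summed levels were 214, 36.0 and 2.56 CPM against 2.07, 3.09 and 1.05 CPM. Endothelial markers were lower in set B (7 of 7 negative, median -1.07, 3 with an unadjusted p below 0.05), with summed levels of 135, 97.0 and 37.3 CPM in set A and 100.3, 57.7 and 12.8 CPM in set B. Pericyte and smooth muscle markers were negative for 7 of 8 (median -0.91, 3 with an unadjusted p below 0.05), at 1267, 922 and 103 CPM against 1111, 474 and 109 CPM. Luminal progenitor markers went the other way (6 of 7 positive, median 1.06, 5 with an unadjusted p below 0.05), at 591, 460 and 2706 CPM in set A and 1015, 927 and 2830 CPM in set B. None of these markers passed the adjusted threshold. The part of these cell types in the heat shock values was not tested. The labels do not define the title number, and what differs between the sets cannot be told apart from it.

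**Figure D4:**
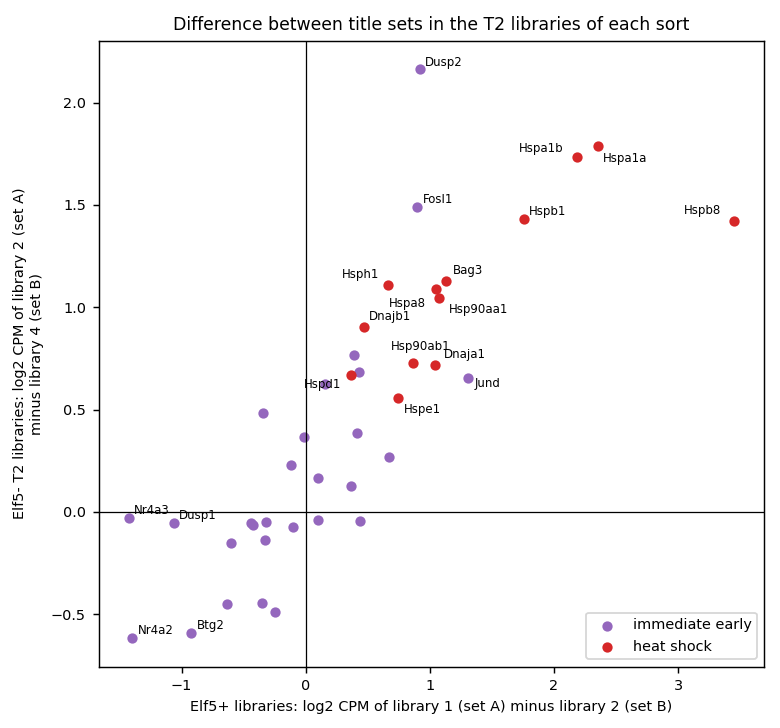
Log2 CPM of the set A library minus the set B library in the Elf5+ libraries (x axis) and in the Elf5- T2 libraries (y axis), 1 point per member, coloured by class. The 13 heat shock members all lie above 0 on both axes, and 10 of the 28 immediate early members do.

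The genes around the members were read from lists of the same pathways. Between the sorts, 0 of 38 other early response genes, 0 of 18 upstream factors and kinases, 0 of 14 endoplasmic reticulum chaperones, 0 of 7 integrated stress response genes, 0 of 8 oxidative and metal stress genes and 0 of 10 NF-kB genes passed with edgeR, against 4.37% of all genes. In the same order, 4, 3, 1, 0, 1 and 1 of them had an unadjusted p below 0.05, as did 16.9% of all genes. Of 34 other chaperones and cochaperones 1 was lower in Elf5+, Serpinh1. It is the collagen chaperone of the endoplasmic reticulum, although the list is named for the cytosol and mitochondria, and it was at 890, 1276, 1274 and 692 CPM in Elf5- and 339 and 212 CPM in Elf5+ (-1.91, SE 0.39, edgeR adjusted p = 0.0380). Fibroblast markers fell in the same libraries, and their part in this value was not tested. Cryab, a small heat shock protein gene outside the 13, was at 112, 65.4, 60.4 and 60.9 CPM in Elf5- and 176 and 111 CPM in Elf5+ (0.94, SE 0.33, adjusted p = 0.180, edgeR).

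Between the title numbers none of these lists had a member that passed with edgeR. An unadjusted p below 0.05 was reached by 8 of the 38 other early response genes, 1 of the 18 upstream factors, 7 of the 34 other chaperones, 4 of the 14 endoplasmic reticulum chaperones, 2 of the 8 oxidative and metal stress genes and 3 of the 10 NF-kB genes, and by 14.6% of all genes. Of those, 3 early response genes, 1 other chaperone and 1 endoplasmic reticulum chaperone were higher in set B. The 7 integrated stress response genes were all negative, set B minus set A, with a median of -0.67, and 4 of them reached that level. Chac1, a target of the ATF4 pathway, was at 17.9, 20.5 and 19.3 CPM in the set A libraries and at 7.87, 5.96 and 5.07 CPM in set B, without overlap (-1.62, SE 0.27, edgeR adjusted p = 0.218). The median was -0.21 over the 34 other chaperones (26 negative) and -0.25 over the 14 endoplasmic reticulum chaperones (11 negative). Hsf1, the factor that activates heat shock genes, was at 58.6, 106 and 112 CPM in set A and at 55.2, 47.2 and 58.1 CPM in set B (-0.77, SE 0.26, edgeR adjusted p = 0.280). Elf5- library 1 and Elf5+ library 2 differed in Hsf1 by less than 1 CPM.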

How the data were processed

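RNA of 6 sorted populations (2 Elf5+, 4 Elf5-) was analysed. The authors deposited expected counts per gene, all whole numbers. The submitters' processing notes name Salmon and build GRCm38.p5; version, annotation and gene summing are not known from the labels. Symbols matched 52220 of 52325 IDs. Coordinates are from GENCODE M21 (GRCm38), promoters from RefSeq (GRCm38.p6).

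Using edgeR 4.0.16 (R 4.3.3), genes were filtered with filterByExpr by group, scaled by TMM and tested by quasi-likelihood, 2-sided, at a Benjamini-Hochberg adjusted p below 0.05 over 20684 genes. SE is the log2 fold change over the root of F. DESeq2 1.42.0 was the other tool. Depth of 9106660 counts limits Elf5- library 4 most.

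Members and lists were chosen with earlier results of these data known. Named genes are, in each role group, the member highest per kilobase and the one of smallest p, and any that passed; others were named after their values were seen. Summing the Hspa1 copies, the library order by scaling and other scalings of the title-number fit were alternatives chosen after seeing the data. The scripts were first tested on simulated data.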

Additional observations from a re-analysis of the deposited data

Results flagged for a closer look

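In 43 results checked for a library far from the others of its group of 4, 2 stood apart (the gap to the nearest library, divided by the group's range, above Dixon's limit), and chance gives such a gap in about 1 in 20 groups. Fosl1 was at 73.9 CPM in Elf5- library 2, while the other 3 Elf5- libraries were at 26.3 to 33.9 CPM (ratio 0.842). Nr4a3 was at 52.5 CPM in Elf5- library 1, while the other 3 were at 22.5 to 23.5 CPM (ratio 0.965).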

How the results depend on the processing

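Of 697 member values for Elf5+ against Elf5- over 17 alternatives, 662 kept their side of the threshold. Another 31 passed it with the same sign, and 4 turned, that is, passed it with the opposite sign. No member was called in the main fit, so sign changes without a call are among the 662. Called or not, 20 members changed sign with epithelial scaling and 10 without Elf5+ library 1. With T2 libraries only and the title number as a term 10 did, and 0 to 9 did in each other alternative. With libraries scaled to epithelial markers, the median of all genes moved from 0.05 to -1.30. There 12 genes were higher and 8052 lower in Elf5+, 19 immediate early (median -1.44) and 6 heat shock members (median -1.25) were called lower, and Fos (-1.19), Jund (-1.44), Hspa8 (-1.24) and Hsp90ab1 (-1.09) turned. With no low-count filter, 273 genes were higher and 1331 lower, with 2 immediate early members and 1 heat shock member lower. With DESeq2 the counts were 436 and 1763, with 2 and 1. With T2 libraries only, edgeR called 0 genes higher and 0 lower (1932 at an unadjusted p below 0.05), and without Elf5- libraries 1 and 2 there were 0 higher and 75 lower. Leaving out each library gave 25 to 133 genes higher, 197 to 811 lower, 0 to 1 heat shock members lower and a heat shock median of -0.41 (without Elf5+ library 1) to 0.64; the counts fell most without Elf5- library 1 (25 higher) and Elf5+ library 2 (197 lower). The cause was not tested.

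Each title number covers 3 libraries, of which 1 Elf5+ and 1 Elf5- are T2. Deviations from group means in the T2 libraries correlated at 0.489 (set A) and 0.536 (set B). With 2 Elf5+ libraries the crossed pairs must give the same values with the opposite sign. They were -0.489 for Elf5+ library 2 with Elf5- library 2, and -0.536 for Elf5+ library 1 with Elf5- library 4. With the replicate block 252 genes were higher and 1011 lower, and no member was called. With T2 libraries only and the block, 549 were higher and 1368 lower, with 1 immediate early member lower (Klf2), 1 heat shock member higher (Hspb1) and 1 lower (Hspb8). There 16 members had an unadjusted edgeR p below 0.05 (39%, against 25.4% of all genes). With T2 libraries and no block it was 1 (2.44%, against 9.96%), and with all libraries and the block 6 (14.6%, against 20.1%). With epithelial scaling it was 35 (85.4%, against 54.8%).

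Between title numbers, 1 gene was higher in set B and 0 lower. With epithelial scaling 3 were higher and 11 lower. With no filter the counts were 743 and 775, with 2 immediate early and 5 heat shock members lower, and with DESeq2 544 and 436, with 1 and 4. Leaving out each library gave 0 to 40 higher, 0 to 21 lower, an immediate early median of -0.24 to 0.10 (without Elf5- library 1) and a heat shock median of -1.06 to -0.62.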
